A study of Homo sapiens with 6 samples.

Results

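The mucins MUC2, MUC5AC, MUC5B and MUC13, the trefoil factors TFF1, TFF2 and TFF3, the goblet cell inhibitor SPINK4 and the regulators SPDEF and FOXA3 were followed in HT29 cells with and without NS398. Every probe set whose platform annotation names 1 of these 10 genes alone was taken, which gave 19 of the 54675 probe sets of the HG-U133 Plus 2.0 array. All 10 genes had at least 1 probe set, with 5 for SPDEF, 4 for MUC5AC, a pair each for MUC5B and MUC13, and 1 for each of the others. HT29 is a human colon adenocarcinoma cell line, and NS398 is a selective inhibitor of cyclooxygenase-2, the inducible enzyme of prostaglandin synthesis. By the labels and the study's methods, the 3 arrays labelled NS398-treated are of HT29 cells kept with the drug at the highest dose used. By the same sources the 3 labelled control are of HT29 cells kept without it, with the DMSO solvent named as control. Per the methods of the study, treatment with the drug was in serum-free medium, and the medium of the control cultures is not stated separately. The model is limited to 1 tumour-derived line.

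Goblet cells are the mucus-secreting cells of the gut epithelium. Their granules hold gel-forming mucins, very large glycoproteins that link into a network, together with trefoil factors, small secreted peptides that help to restore an injured epithelium. In the normal colon the gel-forming mucin is chiefly MUC2 and the trefoil factor chiefly TFF3, while MUC5AC and TFF1 are typical of the surface mucous cells of the stomach, and MUC5B and TFF2 of mucous glands. Notch signalling holds back the secretory fate, the transcription factor ATOH1 starts it, and SPDEF acts below ATOH1 in the maturation of goblet cells. HT29 cells are known for giving rise to mucus-secreting sublines, some of which make MUC5AC.

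The label of the cells was checked against marker genes. Of 11 markers of colonic epithelium, 9 had a mean signal above 128, among them EPCAM (26131 in NS398 and 25358 in control arrays) and KRT18 (44461 in NS398 and 39588 in control arrays). The exceptions were CDX1 and CDX2, whose brightest probe sets had signals of 26.3 and 38.3 in NS398 arrays and 25.9 and 46.0 in control arrays. Of 7 fibroblast, 5 leukocyte and 5 endothelial markers read, 1, 2 and 1 were above 128. The summed signal of the leukocyte markers was 702 to 915 in NS398 and 808 to 834 in control arrays, and that of the endothelial markers 234 to 300 in NS398 and 172 to 301 in control arrays. The summed signal of the fibroblast markers was 778 to 967 in NS398 and 490 to 631 in control arrays, and LUM, a matrix proteoglycan gene, was called higher in this list (215 in NS398 and 45.5 in control arrays). The defining leukocyte gene PTPRC (27.2 in NS398 and 15.8 in control arrays) and the endothelial genes CDH5 and VWF were at signals of this dim order in both groups. LYN on the leukocyte list was brighter (611 in NS398 and 541 in control arrays), as was PECAM1 on the endothelial list (197 in NS398 and 144 in control arrays). The range of these markers is thus wide and sets no single level for an absent transcript. Their part in the results below was not tested.

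Signals are linear array intensities, a difference is the log2 signal of NS398 less that of control arrays, and each difference is given with the standard error (SE) of limma's moderated fit, in which the spread may depend on the signal. A gene is said to have risen or fallen where it passed a Benjamini-Hochberg adjusted p of 0.05 over all 54675 probe sets in this fit. Directions follow the deposited labels. They are opposite to those in the study's own table for SPINK4, FOXA3, TFF3 and MUC13, and to those in its text for most of the genes named there. Whether the labels or the study's contrast were exchanged was not tested. A rise or fall below is therefore a difference between the labelled groups.

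Of the 19 probe sets, 6 rose and 5 fell, which is 57.9% called, against 6.43% of all probe sets (3513 called, with 3.26% higher and 3.17% lower). The 10 genes were chosen with earlier results of these data known. This share and those below therefore describe the members and are no test of them against the array. Of the 14 whose mean log2 signal exceeded 7 (that is, 128), 9 were called, against 14.6% of all probe sets of that brightness. Read from the brightest probe set of each gene, MUC5AC, MUC5B, TFF1 and TFF2 rose, MUC13, TFF3, SPINK4 and FOXA3 fell, and MUC2 and SPDEF were not called, so 4 of 10 genes rose and 4 fell, against 5.23% and 4.85% of all genes read the same way. The groups did not overlap in 14 of the 19 (9 with NS398 above, 5 below), against 24.1% of all probe sets (13.4% above, 10.8% below). The median difference was 0.33 over the 19 and 0.06 over all probe sets. Limma without the variance trend and without robust estimation (plain limma) called 0 of the 19 after adjustment (24 of 54675, 0.0439%, over the array). In plain limma 11 of the 19 had an unadjusted p under 0.05, against 14.6% of all probe sets.

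**Figure D1:**
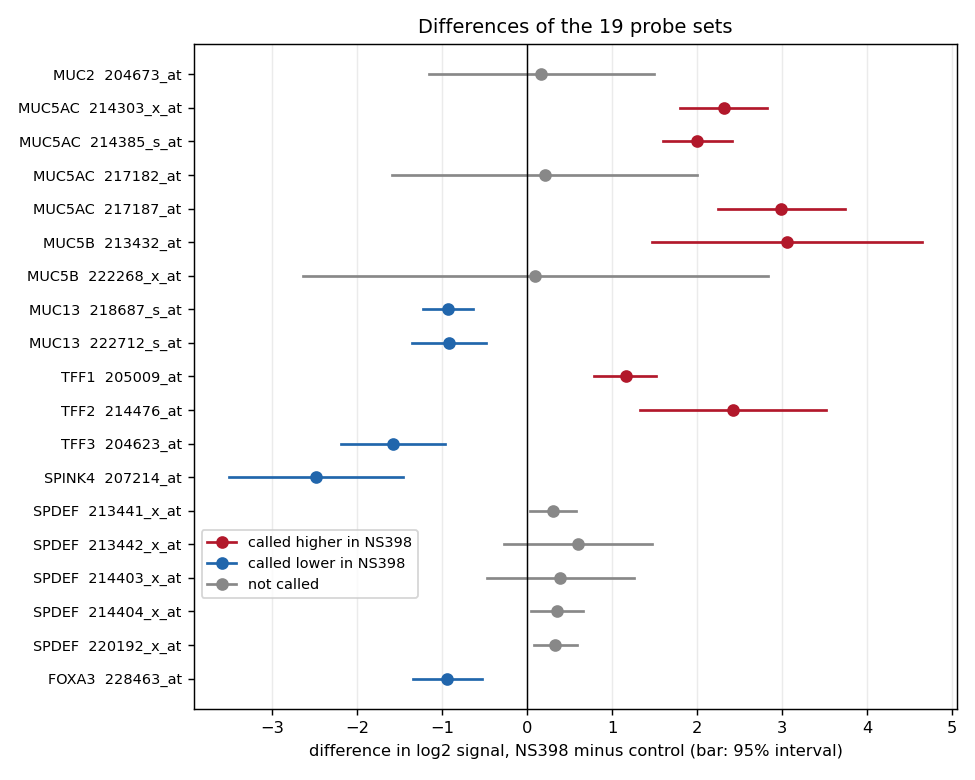
Difference in log2 signal, NS398 minus control (points), with its 95% interval from limma with the variance trend (bars), for each of the 19 probe sets. The 6 called higher belong to MUC5AC, MUC5B, TFF1 and TFF2, the 5 called lower to MUC13, TFF3, SPINK4 and FOXA3, and the intervals of the uncalled MUC5B and MUC5AC probe sets are the widest.

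MUC5AC, a gel-forming mucin of the gastric surface, rose in 3 of its 4 probe sets. Probe set 214385_s_at, the brightest, had signals of 5643, 4033 and 5744 in NS398 arrays and 1318, 1574 and 975.2 in control arrays. The lowest NS398 signal was thus far above the highest control signal, and the difference was 2.00 ± 0.19 (SE, 4.01-fold, limma adjusted p = 0.000139). Probe set 214303_x_at gave 5723, 4142 and 6139 in NS398 and 1119, 1474 and 725.9 in control arrays, a difference of 2.31 ± 0.23 (limma adjusted p = 0.000228). The suffix x_at marks a probe set some of whose probes can also bind other transcripts. The arrays of 214303_x_at stood in the same order as those of 214385_s_at in both groups, which cannot show what its probes bound. Probe set 217187_at gave 1697, 1346 and 588.5 in NS398 and 177.7, 123.6 and 121.4 in control arrays, a difference of 2.99 ± 0.34 (7.96-fold, limma adjusted p = 0.000488). All 3 kept their call under each of 13 alternatives with the variance trend.

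The other MUC5AC probe set did not follow. Probe set 217182_at, which the annotation assigns to the same sequence entry as 217187_at, had 207.3, 139.9 and 243.7 in NS398 arrays and 127.2, 816.0 and 44.4 in control arrays. Control replicate 2 alone lay above the NS398 arrays, and the difference of 0.21 ± 0.81 had an interval from -1.59 to 2.00 (limma adjusted p = 0.933). The difference became 1.35 without control replicate 2 and -0.75 without control replicate 3, neither called. The 217187_at interval of 2.24 to 3.74 lies above this one, so the probe sets of MUC5AC disagree in size.

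MUC5B, the gel-forming mucin of mucous glands and airways, rose, with control signals near the floor of the array. Probe set 213432_at had 239.6, 128.1 and 200.3 in NS398 arrays and 20.0, 73.0 and 7.3 in control arrays. No control array reached the lowest NS398 array, and the difference was 3.06 ± 0.72 (SE, limma adjusted p = 0.0282). Its size depends on the dim control signals: with 32 added to each signal before the logarithm it was 1.85, still called. The call was lost in 5 of the 6 fits that each left out 1 array: the adjusted p was 0.135, 0.0683 and 0.107 without NS398 replicate 1, 2 and 3, and 0.060 and 0.068 without control replicate 1 and 3. The dim MUC5B probe set 222268_x_at had 11.9, 31.9 and 5.2 in NS398 arrays and 8.6, 69.8 and 2.7 in control arrays. These values are in the range of the dimmer leukocyte and endothelial markers. No direction can be read from this probe set (0.09 ± 1.25, limma adjusted p = 0.982).

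MUC2, the main gel-forming mucin of the normal colon, was not called. Its 1 probe set, 204673_at, had 176.1, 138.3 and 150.4 in NS398 arrays and 46.6, 413.9 and 134.9 in control arrays. The NS398 arrays lay within 1.27-fold of each other, the control arrays spanned 8.88-fold, and the difference of 0.16 ± 0.60 (limma adjusted p = 0.927) had an interval from -1.16 to 1.49 that covers a change of more than 2-fold either way. The sign turned without control replicate 1 (-0.62, adjusted p = 0.497) and the value was 0.96 without control replicate 2.

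MUC13 is a transmembrane mucin of the intestinal surface that anchors in the membrane and forms no gel. Probe set 218687_s_at had 1073, 1378 and 1333 in NS398 arrays and 2204, 2587 and 2392 in control arrays. Probe set 222712_s_at had 1436, 1615 and 918.4 in NS398 arrays and 2074, 2496 and 2806 in control arrays. In both, every NS398 array was below every control array, and the differences were close, -0.93 ± 0.13 (limma adjusted p = 0.00197) and -0.92 ± 0.20 (limma adjusted p = 0.0182). The first kept its call in all 13 alternatives, and the second lost it without control replicate 2 (adjusted p = 0.0573) and without control replicate 3 (adjusted p = 0.0998). MUC13 was thus the mucin of the group that fell, while MUC5AC and MUC5B rose.

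**Figure D2:**
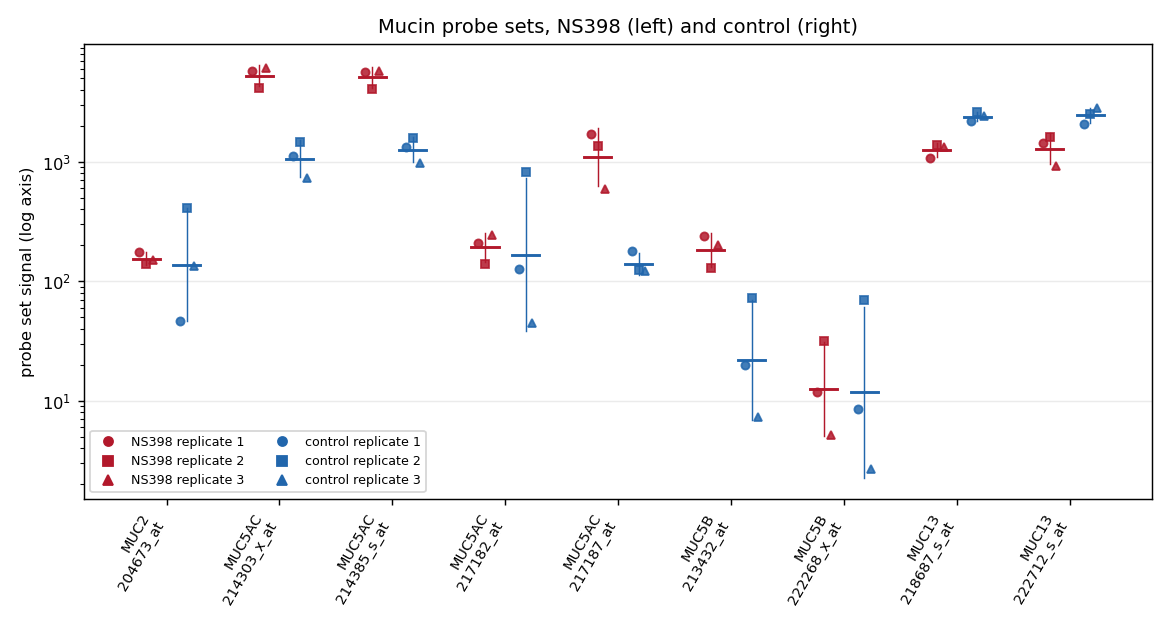
Signal of the 9 mucin probe sets in each array (symbols, on a logarithmic axis), with means taken on the log2 scale (horizontal bars) and ± SD of 3 arrays (vertical bars), NS398 in red to the left and control in blue to the right. MUC5AC stands at 4033 to 6139 in NS398 arrays in its pair of brightest probe sets, above 725.9 to 1574 in control arrays, and control replicate 2 (squares) is the highest control array in 7 of the 9 probe sets.

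The trefoil factors moved in opposite directions. TFF1, the gastric trefoil peptide also known as an oestrogen-responsive gene of breast cancer cells, had 865.2, 680.5 and 721.1 in NS398 arrays and 345.4, 356.4 and 310.2 in control arrays. The groups lay well apart with little spread in either, and the difference was 1.16 ± 0.17 (SE, 2.23-fold, limma adjusted p = 0.00194). It stayed between 1.04 and 1.23 and was called in all 13 alternatives.

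TFF2, the trefoil peptide of mucous neck and gland cells, had 284.4, 271.6 and 290.3 in NS398 arrays and 111.7, 60.2 and 21.9 in control arrays. The NS398 arrays were nearly alike, within 1.07-fold, while the control arrays spanned 5.10-fold down to signals like those of the dimmer leukocyte markers. The difference was 2.42 ± 0.50 (SE, limma adjusted p = 0.0139), or 1.81 with 32 added to each signal and 1.78 without control replicate 3, both called. Without NS398 replicate 1, 2 or 3 the adjusted p was 0.0625, 0.0569 and 0.0591.

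TFF3, the intestinal trefoil factor of goblet cells, had 478.8, 582.4 and 515.5 in NS398 arrays and 945.1, 2496 and 1632 in control arrays. Every NS398 array was below the lowest control array, and the difference was -1.58 ± 0.28 (SE, 2.99-fold lower, limma adjusted p = 0.00624). The call held in all 13 alternatives, between -1.95 without control replicate 1 and -1.25 without control replicate 2. On each array the log2 signal of TFF1 less that of TFF3 gave 0.85, 0.22 and 0.48 in NS398 and -1.45, -2.81 and -2.40 in control arrays, so the balance between the probe sets differed by 2.74 (6.68-fold) between groups. Signals of different probe sets carry different affinities, and these values give the change of the ratio, not which peptide transcript was the more abundant.

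The 3 trefoil genes stand next to each other on chromosome 21 in the RefSeq annotation, in the order TFF3, TFF2, TFF1, with ABCG1 before TFF3 and TMPRSS3 after TFF1. ABCG1, which encodes a cholesterol exporter, had 1462, 1166 and 1343 in NS398 arrays and 88.4, 202.9 and 128.9 in control arrays, a rise of 3.32 ± 0.27 (limma adjusted p = 5.39e-05). TMPRSS3, a membrane serine protease gene, was dim and was not called (-0.25 ± 0.57). TFF3 was therefore the 1 gene of this run of 5 that fell. MUC2, MUC5AC and MUC5B likewise lie side by side on chromosome 11, followed by TOLLIP, which was not called (-0.04 ± 0.14).

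SPINK4, a small Kazal-type serine protease inhibitor secreted by goblet cells, showed the largest decrease among the 19 probe sets. It had 92.7, 62.0 and 78.1 in NS398 arrays and 176.1, 782.3 and 572.9 in control arrays. All NS398 arrays were under 128 and below the lowest control array, and the difference was -2.49 ± 0.46 (SE, 5.60-fold lower, limma adjusted p = 0.00868). It ranged from -3.13 without control replicate 1 to -2.05 without control replicate 2, and the call was lost without control replicate 3 (-2.28, adjusted p = 0.0599).

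FOXA3, a forkhead transcription factor of gut endoderm that can drive mucus genes in the airway of mice, had 696.1, 726.0 and 691.8 in NS398 arrays and 992.0, 1720 and 1449 in control arrays. The NS398 arrays were within 1.05-fold of each other and all below the control arrays, and the difference was -0.94 ± 0.19 (SE, 1.92-fold lower, limma adjusted p = 0.0123). The adjusted p was 0.0517 without NS398 replicate 1 and 0.0705 without control replicate 3. Over the 6 arrays FOXA3 ran closest to TFF3 (Pearson's r = 0.9961, as a description over 2 groups of 3) among 10667 other genes brighter than 128.

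The sequences before the start sites of 3 of the 4 members that fell are shown because these genes moved together. RefSeq promoter sequences were matched for 5 of the 10 members, among them SPINK4, FOXA3 and MUC13. The 250 bases before the start are printed 5′ to 3′ on the gene's strand (build GRCh38.p14), SPINK4 at chr9:33239917-33240166 on the plus strand, FOXA3 at chr19:45864076-45864325 on the plus strand and MUC13 at chr3:124934752-124935001 on the minus strand. Capitals mark the GATA motif AGATAAG and the TATA motif TATAAA, searched on both strands together with the forkhead motif TNTTTAC. The E-box CAGNTG was searched as well and is left unmarked.
SPINK4: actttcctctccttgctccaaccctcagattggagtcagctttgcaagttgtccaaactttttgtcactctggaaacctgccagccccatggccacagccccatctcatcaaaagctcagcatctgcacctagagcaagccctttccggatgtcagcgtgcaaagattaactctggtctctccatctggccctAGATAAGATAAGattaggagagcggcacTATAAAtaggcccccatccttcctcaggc
FOXA3: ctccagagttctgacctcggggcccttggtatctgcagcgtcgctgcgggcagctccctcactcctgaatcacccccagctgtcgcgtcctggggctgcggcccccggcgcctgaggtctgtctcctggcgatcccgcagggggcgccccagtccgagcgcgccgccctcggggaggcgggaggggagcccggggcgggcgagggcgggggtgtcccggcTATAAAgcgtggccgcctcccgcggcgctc
MUC13: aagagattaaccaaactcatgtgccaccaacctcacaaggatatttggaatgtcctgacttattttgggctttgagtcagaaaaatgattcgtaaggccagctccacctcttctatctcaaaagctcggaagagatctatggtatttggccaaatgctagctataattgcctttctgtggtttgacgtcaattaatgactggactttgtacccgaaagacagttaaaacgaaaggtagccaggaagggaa
SPINK4 holds AGATAAG at 57 and 52 bases before the start, where the copies overlap, and TATAAA at 29 bases. FOXA3 holds TATAAA at 30 bases in a window of 75.2% GC, and MUC13 holds none of the motifs searched in a window of 41.6% GC. CAGNTG stands at 130 and 68 bases in SPINK4, at 174 in FOXA3, and at 115, 99 and 92 in MUC2, which was not called. Of 35116 promoters of the same length, 2.36% hold AGATAAG, 10.7% hold TATAAA, 9.58% hold TNTTTAC and 42.5% hold CAGNTG. Of the 5 matched members SPDEF alone holds TNTTTAC, at 49 bases. The matches describe letters only.

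SPDEF, the Ets-family transcription factor of goblet cell maturation, was not called in any of its 5 probe sets, all of which carry the x_at suffix. The brightest, 220192_x_at, had 1810, 1743 and 1934 in NS398 arrays and 1394, 1515 and 1456 in control arrays. All NS398 arrays were above all control arrays here and in 213441_x_at and 214404_x_at, with differences of 0.33 ± 0.11, 0.30 ± 0.12 and 0.35 ± 0.14 and limma adjusted p of 0.135, 0.215 and 0.204. Their 95% intervals ran from 0.08 to 0.58, from 0.03 to 0.57 and from 0.04 to 0.65. The other two, 213442_x_at and 214403_x_at, were dimmer, with overlapping groups and differences of 0.60 ± 0.40 and 0.39 ± 0.39. After median centring of the arrays the 3 brighter differences were 0.21, 0.18 and 0.22.

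**Figure D3:**
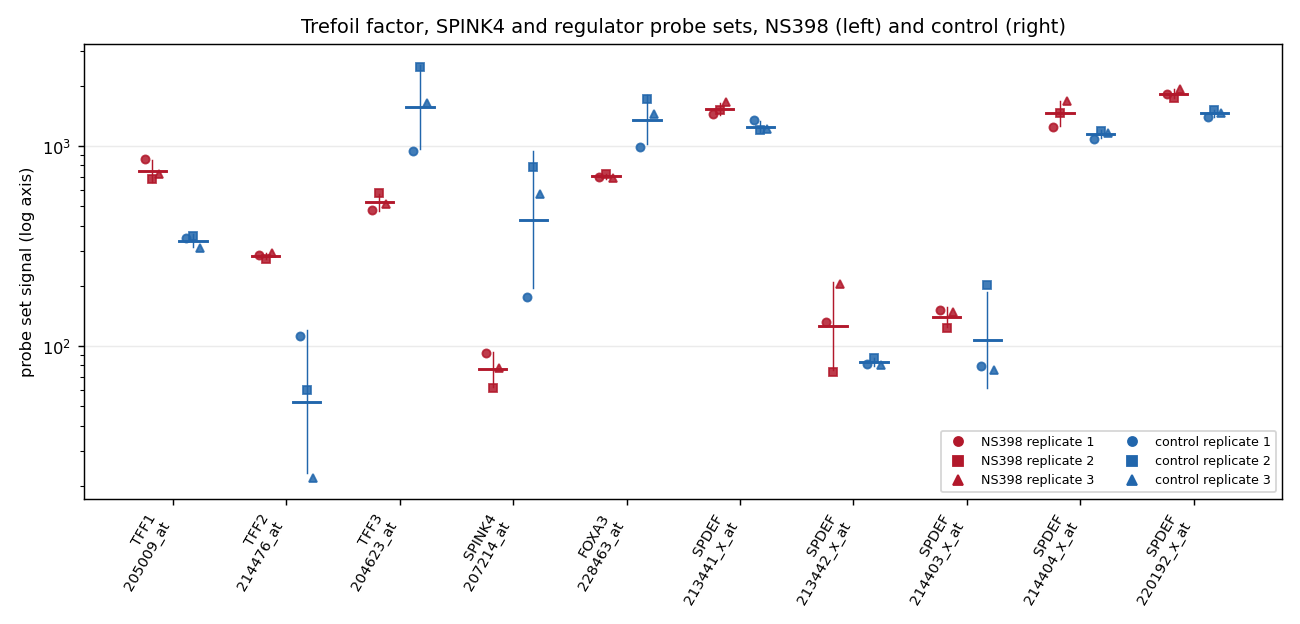
Signal of the probe sets of the trefoil factors, SPINK4, FOXA3 and SPDEF in each array (symbols, on a logarithmic axis), with means taken on the log2 scale (horizontal bars) and ± SD of 3 arrays (vertical bars), NS398 in red to the left and control in blue to the right. TFF1 and TFF2 are higher in every NS398 array, TFF3, SPINK4 and FOXA3 are lower in every NS398 array, and in these last 3 the control arrays are spread with replicate 2 the highest and replicate 1 the lowest.

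The control arrays spanned a wider ratio of highest to lowest signal than the NS398 arrays in 11 of the 19 probe sets, a share close to that of all probe sets (55.6%). Control replicate 2 was the highest control array in 15 of the 19, against 39.4% of all probe sets, and control replicate 3 the lowest in 10, against 34.6%. Control replicate 2 was the highest and control replicate 1 the lowest in 7 of the 19, against 21.1% of all probe sets, an order noticed after the values were seen. These were the probe sets of TFF3, SPINK4, FOXA3 and MUC2, 218687_s_at of MUC13, and 214404_x_at and 220192_x_at of SPDEF. AGR2, AGR3, FCGBP and GFI1 of the lists described below had the same order, as did others, among them KLF4, FOXA1, NOTCH1, BCAS1 and ZG16. In contrast, CLCA1, KLK1, QSOX1 and GCNT3 of the secretory products had control replicate 1 as the highest control array. So did HES1, HES4, ELF3 and JAG2 of the lineage regulators, and SOX9 had control replicate 2 as the lowest. How often the order occurs was not counted over the lists. The order held too for ATOH1, the factor that starts the secretory fate. ATOH1 had 149.6, 231.5 and 165.1 in NS398 arrays and 208.5, 932.8 and 702.8 in control arrays (-1.53 ± 0.45, limma adjusted p = 0.0754). GFI1, a repressor that acts with ATOH1 in secretory cells, had 17.6, 92.9 and 22.2 in NS398 arrays and 68.7, 152.5 and 131.1 in control arrays (-1.75 ± 0.65, adjusted p = 0.161). Neither ATOH1 nor GFI1 passed, and their groups overlapped.

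Values of RNA quality and scale stood beside these results. For ACTB, the 3′ control probe set over the 5′ one gave a ratio of 1.56 ± 0.13 in NS398 and 1.29 ± 0.03 in control arrays (SD, n = 3 each, exact two-sided permutation p = 0.1, the smallest p possible). That of GAPDH was 1.10 ± 0.09 in NS398 and 1.03 ± 0.06 in control arrays (exact permutation p = 0.5), and the 18S rRNA control signal was 4825 to 23625 in NS398 and 3453 to 4856 in control arrays (exact permutation p = 0.2). The median log2 signal of an array was 6.25 to 6.33 in NS398 and 6.02 to 6.32 in control arrays (exact permutation p = 0.3), with control replicate 2 at 6.32. Their part in the goblet results was not tested, and centring each array on its median kept all 11 calls. Pairs of arrays correlated at 0.961 to 0.983 in the same group and at 0.931 to 0.952 in different groups (Pearson's r over the brighter probe sets). In bulk RNA, fewer cells making a transcript and less transcript per cell cannot be told apart.

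Other genes of the goblet programme were counted from lists chosen for their function. Of 16 measured genes of goblet secretory products, 1 rose and 0 fell, which is 6.25%, against 10.1% of all 19775 genes read from their brightest probe set. The list median of 0.03 was close to that of all genes (0.06), and 3 genes were called without control replicate 1 and 2 without control replicate 2. The protein disulphide isomerase AGR2, which mucin folding needs, had 25980 in NS398 and 29037 in control arrays (geometric means, -0.16 ± 0.17), and its relative AGR3 had 4615 in NS398 and 5521 in control arrays (-0.26 ± 0.17). The mature goblet products CLCA1 (21.4 in NS398 and 8.85 in control arrays) and ZG16 (20.2 in NS398 and 26.2 in control arrays) were below 128 in every array. FCGBP, which binds to MUC2 in mucus, had 321 in NS398 and 196 in control arrays (0.71 ± 0.55, adjusted p = 0.566). Apart from GCNT3 the products on this list were therefore not called with the members.

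Of 11 other mucin genes 0 were called by limma with the variance trend, against 10.1% of all genes, and 0 by plain limma. Only 3 of the 11 had a mean signal above 128. With so few bright genes, 0 calls sets no contrast with the members. MUC1 and MUC20, transmembrane mucins, had differences of 0.07 ± 0.25 and 0.22 ± 0.23. MUC6, the gel-forming mucin of gastric glands, was dim, with 154.9, 92.9 and 129.0 in NS398 arrays and 20.3, 91.7 and 47.8 in control arrays (1.46 ± 0.54, adjusted p = 0.161). The lowest NS398 array lay barely above the highest control array. The transmembrane mucin MUC12 had 65.3 in NS398 and 135 in control arrays (-1.05 ± 0.44, adjusted p = 0.227).

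Of 6 markers of gastric mucous cells, VSIG1, an adhesion molecule gene of the stomach, rose, which is 16.7%, against 10.1% of all genes. It had 907.0, 839.9 and 953.5 in NS398 arrays and 272.8, 338.3 and 398.1 in control arrays (1.44 ± 0.18, limma adjusted p = 0.000769). The median difference of the 6 was 1.24, against 0.06 over all genes, and 2 of the 6 had a mean signal above 128. ANXA10, an annexin gene of gastric mucosa, had 11500 in NS398 and 9510 in control arrays (0.27 ± 0.10, limma adjusted p = 0.134). GKN1, GKN2 and CLDN18 were below 128 in both groups and not called, with differences of 2.87 ± 1.02, -0.01 ± 0.67 and 1.04 ± 0.91. The median of the 6 thus rests in part on dim signals. The markers of enteroendocrine (9 read) and Paneth cells (5 read) had 0 calls, against 10.1% of all genes. With so few genes, 0 calls is close to that share. All enteroendocrine markers were below 128. The Paneth defensins DEFA5 and DEFA6 had 7.95 and 13.3 in NS398 and 20.5 and 18.5 in control arrays. LYZ, the lysozyme gene on the Paneth list, was bright, with 31323 in NS398 and 28307 in control arrays. Of the colonic epithelium markers, KRT20, a keratin of differentiated enterocytes and goblet cells, rose (1.15 ± 0.11), as did CLDN7 (0.80 ± 0.17) and LGALS4 (0.38 ± 0.08), and villin, VIL1, fell (-0.71 ± 0.13). These calls make up 36.4% of the 11 markers, against 10.1% of all genes, and no test compared the shares. After median centring LGALS4 (0.26, adjusted p = 0.205) and CLDN7 (0.68, adjusted p = 0.0515) were no longer called. Both were also lost without NS398 replicate 1 or 3 or control replicate 3, LGALS4 without NS398 replicate 2 and CLDN7 without control replicate 2. KRT20 and VIL1 kept their calls in all 13 alternatives with the trend, but not in plain limma (adjusted p = 0.0972 and 0.211).

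Mucins are decorated with O-linked sugars, which make up much of their mass. Of 26 measured genes of mucin O-glycosylation, 1 rose and 1 fell, which is 7.69%, against 10.1% of all genes, with a median of 0.03. The count was 1 without NS398 replicate 1, 2 or 3 or control replicate 3, 8 without control replicate 1, and 6 of 21 genes where the mean log2 signal had to exceed 7. GCNT3, a mucin-type branching enzyme that makes core 2 and core 4 structures, had 24439, 24167 and 22773 in NS398 arrays and 14110, 9272 and 11023 in control arrays. Its groups lay apart, with a difference of 1.07 ± 0.13 (limma adjusted p = 0.000764), and it also stands on the list of secretory products. GCNT1, the leukocyte-type core 2 enzyme, had 663.9, 632.3 and 583.8 in NS398 arrays and 812.7, 978.5 and 1155 in control arrays (-0.64 ± 0.16, limma adjusted p = 0.0403). The call of GCNT1 was lost in 6 of 13 alternatives, those without NS398 replicate 1, 2 or 3 or control replicate 2 or 3 and the replicate block, with an adjusted p of up to 0.178, while that of GCNT3 held in all 13. FUT3, the Lewis fucosyltransferase, had 284 in NS398 and 67.1 in control arrays and lay just outside the threshold (2.08 ± 0.56, adjusted p = 0.0511).

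Of 28 measured regulators of the secretory lineage, 3 rose and 4 fell, which is 25%, against 10.1% of all genes, with a median of -0.24. No test compared these shares, and the count was 4 without NS398 replicate 1 or 3 or control replicate 3, and 0 in plain limma. JAG1, a Notch ligand, had 7083, 6103 and 6131 in NS398 arrays and 1777, 1511 and 2189 in control arrays, a difference of 1.83 ± 0.14 (limma adjusted p = 3.85e-05). BHLHA15, known as MIST1, which builds the secretory apparatus in exocrine cells of the mouse, had 806.6, 853.5 and 846.9 in NS398 arrays and 192.8, 232.6 and 110.9 in control arrays (2.29 ± 0.25, adjusted p = 0.00042). Its upstream partner XBP1, a transcription factor of endoplasmic reticulum stress, had 10081, 8558 and 8445 in NS398 arrays and 5274, 6244 and 6225 in control arrays (0.61 ± 0.11, adjusted p = 0.00703). These 3 rose in every NS398 array, and XBP1 alone lost its call in 1 of 13 alternatives, median centring (0.49, adjusted p = 0.0548).

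The regulators that fell were SOX4, FOXA2, HES6 and NOTCH1, of which only SOX4 was among the 4 smallest p of the list, and the others were named after their values were seen. SOX4, a transcription factor of progenitor and tuft cells, had 4037, 5903 and 5493 in NS398 arrays and 11878, 23003 and 20893 in control arrays (-1.82 ± 0.22, limma adjusted p = 0.000732). FOXA2, the relative of FOXA3 that also acts in gut secretory cells, had 2116, 1988 and 2177 in NS398 arrays and 2609, 4231 and 4020 in control arrays (-0.76 ± 0.17, adjusted p = 0.0203). HES6, a basic helix-loop-helix factor that opposes HES1, had 383.9, 614.6 and 616.5 in NS398 arrays and 943.4, 5222 and 4036 in control arrays (-2.36 ± 0.57, adjusted p = 0.0462). In all 3 control replicate 1 was the lowest and control replicate 2 the highest control array, as for TFF3, SPINK4 and FOXA3. The receptor NOTCH1 fell by 0.60 on the log2 scale (SE 0.14, adjusted p = 0.0301), with 822 in NS398 and 1246 in control arrays. The calls of FOXA2, HES6 and NOTCH1 were each lost without NS398 replicate 1, 2 or 3 and without control replicate 2 or 3. That of NOTCH1 was also lost with the replicate block (adjusted p = 0.0767), and that of HES6 after median centring, with a mean log2 signal above 4 and with an offset of 32 (adjusted p = 0.0745, 0.0754 and 0.0618). SOX9, ELF3 and FOXA1 had differences of 0.02 ± 0.12, 0.09 ± 0.21 and -0.22 ± 0.18, with overlapping groups.

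**Figure D4:**
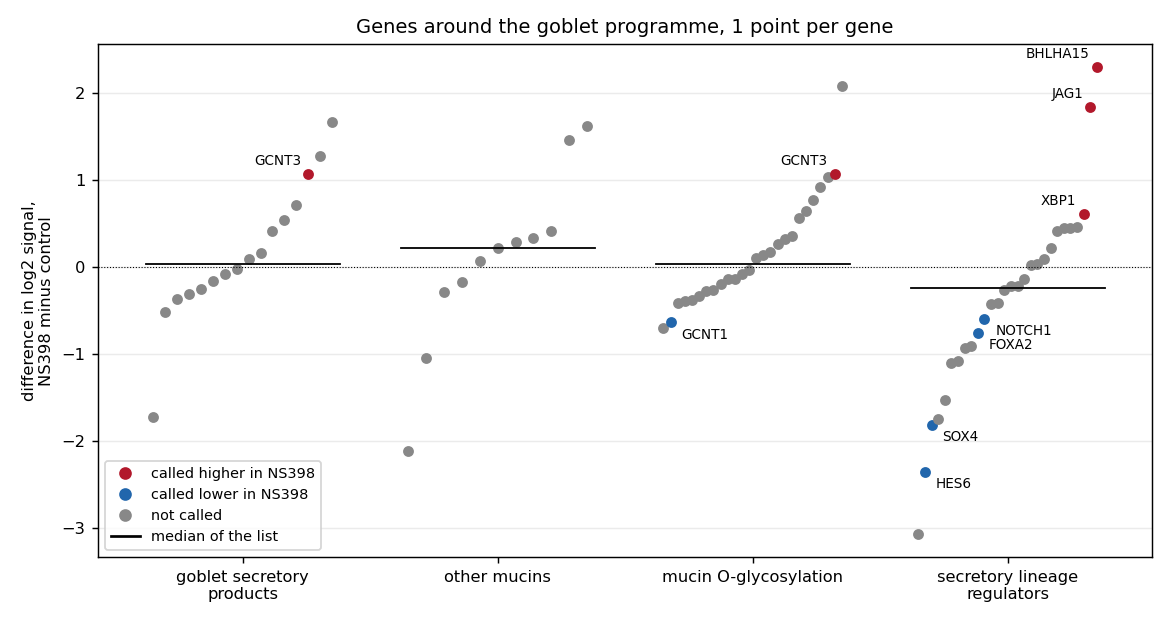
Difference in log2 signal, NS398 minus control, of each measured gene of the 4 lists (1 point per gene, sorted within a list), with the list median as a black line. The called genes are named. The lineage regulators hold 7 called genes between -2.36 and 2.29, and the secretory products, other mucins and O-glycosylation genes hold 1, 0 and 2.

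The genes whose pattern over the 6 arrays was most like that of a called member are given as a description over 6 arrays in 2 groups. For MUC5AC they were MYRFL, SHROOM1 and the EGF receptor ligand EREG (Pearson's r of 0.998, 0.995 and 0.9941). For TFF1 they were FRY, STT3B, a subunit of the oligosaccharyltransferase that adds N-linked sugars, and ASPH (0.999, 0.9975 and 0.9971), and for TFF2 CANX, the chaperone calnexin, KLHL8 and DHODH (0.9985, 0.9969 and 0.9962). For MUC5B they were B3GALNT2, USP3 and SMUG1 (0.9896, 0.9856 and 0.9844). For SPINK4 they were TP53INP1, CEP112 and IL22RA1, the interleukin-22 receptor subunit (0.9973, 0.995 and 0.9946). TFF3 and FOXA3 were each the nearest gene to the other, and TFF3 was followed by CDK2AP1 and EMSY (0.9956 and 0.9954) and FOXA3 by MARCKSL1 and SMARCE1 (0.996 and 0.9948). For MUC13 they were RBM22, FASTKD3 and GABARAPL2 (0.9967, 0.9958 and 0.9928).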

How the data were processed

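Total RNA of HT29 cells, 3 samples labelled NS398-treated and 3 labelled control, was hybridised on 1 HG-U133 Plus 2.0 array each. The deposited values are linear intensity values, 1 signal per probe set and array, between 0.1 and 80608.2, with a mean of 500 in each array after removal of the top and bottom 2%. They thus differ in kind from gcRMA values, which the study's methods name. Per the submitters' processing notes the tool was affy (its version is not given in the sources used here).

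Log2 signals, with no offset, were fitted with lmFit and eBayes of limma 3.58.1 (R 4.3.3, treatment as the only term). The main fit, with trend and robust estimation, had a median of 7.07 prior degrees of freedom, against 1.36 with neither (plain limma). SAM, named in the methods of the study, was not run. Benjamini-Hochberg adjustment ran over 54675 probe sets. The study's methods name the samples biological replicates, and since no label ties an array to a culture, a p-value reflects only the spread among these samples, and precision is limited by the number of arrays. Of the probe sets, 41097 name 1 gene, 1801 several and 11777 none, by the platform annotation checked against RefSeq by Entrez number. Outside the members a gene was read from its probe set of highest mean. By rule, named genes were all members, up to 4 genes of smallest p per list among those called, and, for likeness, the 3 genes of highest r. Every other list gene, marker or neighbour named was chosen after its values were seen. The members and lists were chosen with earlier results of these data known. The fit was also run on simulated data of 54675 probe sets, where it missed most of the planted changes. A gene that was not called is therefore not shown to be unchanged. Alternatives were plain limma, median centring, quantile normalisation, mean log2 signal above 4 or 7, an offset of 32, array weights, the replicate number as a block, leaving out each array, and, for lists, gene means. Figures used matplotlib 3.10.9.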

Additional observations from a re-analysis of the deposited data

How the results depend on the processing

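Plain limma, with neither the variance trend nor robust estimation, called 0 of the 19 goblet probe sets. It called 24 probe sets in all and 0 genes of the 4 lists. The main fit called 11, 3513 and 9. The parts of the trend and of robust estimation were not separated. Median centring left the 11 member calls in place and called 2807 probe sets in all, 864 higher and 1943 lower, against 1782 higher and 1731 lower without it. Quantile normalisation, a mean log2 signal above 4, an offset of 32 and array weights also gave 11 member calls, and a mean log2 signal above 7 gave 9, since it leaves out TFF2 and the brighter MUC5B probe set. That limit gave 14 calls in the lists. Leaving out 1 array gave 7 to 10 member calls, 1826 to 3984 over all probe sets and 5 to 19 in the lists. The lowest member count was 7 without control replicate 3. Over all probe sets the count was 1826, 1896 and 2340 without NS398 replicate 1, 2 and 3 and 1876 without control replicate 3. The list count was 19 without control replicate 1 and 5 without NS398 replicate 1 or 3 or control replicate 3.

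No called member changed sign under any alternative. Among uncalled ones, MUC2 turned to -0.62 without control replicate 1 (0.96 at most, without control replicate 2) and MUC5AC probe set 217182_at to -0.75 without control replicate 3 (1.35 at most, without control replicate 2). The dim MUC5B probe set 222268_x_at turned to -0.03 after median centring, -0.05 after quantile normalisation, -0.15 with the offset, -0.58 without NS398 replicate 2, -0.13 without control replicate 1 and -0.97 without control replicate 3, and was 1.38 without control replicate 2. The causes were not tested. The labels number the replicates 1 to 3 in both groups. With the replicate number as a block 11 member calls, 2462 probe sets and 10 list genes were called. Same-numbered arrays did not deviate together (r of -0.137, -0.0633 and -0.104), so no pairing by number was visible in the signals. These values cannot show whether same-numbered samples were cultured or run together.

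Dim signals limit the results for both MUC5B probe sets, for TFF2 in control arrays, for SPINK4 in NS398 arrays and for SPDEF probe set 213442_x_at, and the 8.88-fold spread of the control arrays limits that for MUC2.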
